A study of Mus musculus with 3 samples.

Results

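Heme and iron handling was examined in bone marrow-derived macrophages (BMDMs) through 10 genes out of 34821 gene names on the arrays. These were Spic, Cd163, Hmox1, Slc40a1, Hamp, Fth1, Ftl1, Tfrc, Slc11a1, and Lcn2, and they were chosen by name for their known roles, so that every probe carrying 1 of these names was used. Earlier results of these data were known when the genes were chosen. The arrays belong to a study of macrophages that engulf live blood cells after inflammatory stimulation. For the array cultures, the paper's methods describe stimulation before RNA extraction and mention no added cells to engulf. The BMDMs came from C57BL/6J mice and were grown in M-CSF. During 20 h of culture they received either CpG, or IFN-γ + αIL-10R, or CpG combined with both others (Triple). CpG DNA activates TLR9, IFN-γ is the main macrophage-activating cytokine of T and NK cells, and αIL-10R is an antibody against the IL-10 receptor. Each condition had 1 array, the labels do not say whether the 3 samples came from separate cultures, and no difference given here has a replicate check. No unstimulated BMDMs were analysed here, so that each value is relative to another stimulated culture.

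Macrophages that engulf blood cells break down hemoglobin, and the heme it carries is cleaved by heme oxygenase into biliverdin, carbon monoxide, and free iron. The iron is stored in ferritin or leaves the cell through ferroportin, which the hormone hepcidin removes from the cell surface. During infection macrophages typically hold iron back from microbes, and much of this control acts on mRNA stability, translation, and protein turnover, which arrays do not measure.

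The measured quantity was the processed signal, an intensity in arbitrary units after background subtraction by the scanner software. A signal is called well above background where that software marked it so, and the lowest such signals of a probe on the CpG, IFN-γ + αIL-10R, and Triple arrays were 23.8, 26.7, and 26.3. Folds were calculated after each array was scaled by its 75th percentile, and genes with more than 2-fold differences are counted. In the same order, 46.0%, 44.8%, and 44.4% of spots were well above background. Spots of 1 probe within an array differed with an SD of 0.09, 0.08, and 0.10 (log2) in this order. A log2 fold calculated from single spots therefore carries a technical SD of 0.13, into which differences between cultures do not enter. The 3 conditions shared 1 slide and 1 scan but lay at different positions of that slide.

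The macrophage label was checked first. All 7 measured macrophage markers (Csf1r, Adgre1, Cd68, Itgam, Fcgr1, Mertk, and Cd14) were well above background on every array. Csf1r, the receptor for M-CSF, had signals of 196810 (CpG), 230482 (IFN-γ + αIL-10R), and 159074 (Triple). Csf1r and Adgre1 passed 2-fold in no comparison, but the other 5 did in at least 1 and in different directions. Cd14 had signals of 55389, 5534, and 90961 in the same order, higher with CpG and with Triple than with IFN-γ + αIL-10R. Itgam was higher and Fcgr1 and Mertk were lower with CpG than with IFN-γ + αIL-10R (log2 folds of 1.33, −1.06, and −1.31), Cd68 was lower with Triple than with IFN-γ + αIL-10R (−1.17), and Mertk was higher with Triple than with CpG (2.02). Of markers of other cells, 4 of 8 for neutrophils, 3 of 6 for T cells, 3 of 5 for dendritic cells, 1 of 4 for megakaryocytes, and 2 of 4 measured for stroma were well above background on at least 1 array. Markers of further cell types were also read and are not reported here, although some of them passed 2-fold between arrays. Of the T cell markers, Cd3e had signals of 858, 869, and 806 in the order CpG, IFN-γ + αIL-10R, and Triple, and Cd28 of 2223, 1927, and 156, whereas Cd3d and Cd3g were not well above background on any array. Pf4, a megakaryocyte marker, had signals of 47339, 32005, and 11025, and Ccr7, a dendritic cell marker, of 319, 225, and 2892. Cd28 and Pf4 were thus more than 2-fold lower and Ccr7 more than 2-fold higher with Triple than on either other array, and their part in the results for heme and iron genes was not tested. Genes that respond to the agents named in the labels were read next. All 6 genes of the IFN-γ response list were more than 2-fold lower with CpG than with IFN-γ + αIL-10R. Irf1, a transcription factor of that response, had signals of 9196 (CpG), 132675 (IFN-γ + αIL-10R), and 123964 (Triple). Of these 6 genes, 5 were more than 2-fold higher with Triple than with CpG. The exception was Ciita, the regulator of MHC class II genes, whose signals of 114, 258, and 63.3 were lowest with Triple, 3.99-fold lower than with IFN-γ + αIL-10R. All 6 genes of the TLR list were more than 2-fold higher with Triple than with IFN-γ + αIL-10R, and 5 of 6 were with CpG. Of 4 genes known to respond to IL-10, Socs3 and Bcl3 were more than 2-fold higher with CpG and with Triple than with IFN-γ + αIL-10R, whereas Il4ra and Sbno2 were not. With Triple over CpG, Socs3 was 3.14-fold higher, and the other 3 did not pass 2-fold.

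Spic, Lcn2, and Hmox1 differed most between the IFN-γ + αIL-10R array and the arrays with CpG, whereas the largest folds of Slc40a1 and Tfrc were between Triple and CpG. Compared with IFN-γ + αIL-10R, 4 of the 10 genes (Spic, Lcn2, Hmox1, and Slc11a1) were more than 2-fold higher with Triple, where 3.53% of all 33597 genes measured were higher. With CpG alone, 3 of the 10 genes (Spic, Lcn2, and Hmox1) were higher, against 2.75% of all genes. Conversely, 1 of 10 genes (Slc40a1) was more than 2-fold lower with Triple, against 5.01% of all genes, and 0 of 10 were lower with CpG, against 3.18%. Between Triple and CpG, 0 of 10 genes were higher with Triple, against 4.08% of all genes, and 2 of 10 (Slc40a1 and Tfrc) were lower, against 4.55%. Both comparisons with IFN-γ + αIL-10R share that array, and Triple over CpG shares 1 array with each of them, so that an error in 1 array enters 2 comparisons. Hamp and Cd163 were not well above background on any array, and the other 8 were on all 3. Among all genes well above background on either array compared, the shares higher and lower were 6.57% and 9.32% (Triple over IFN-γ + αIL-10R), 5.06% and 5.85% (CpG over IFN-γ + αIL-10R), and 7.48% and 8.34% (Triple over CpG).

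**Figure D1:**
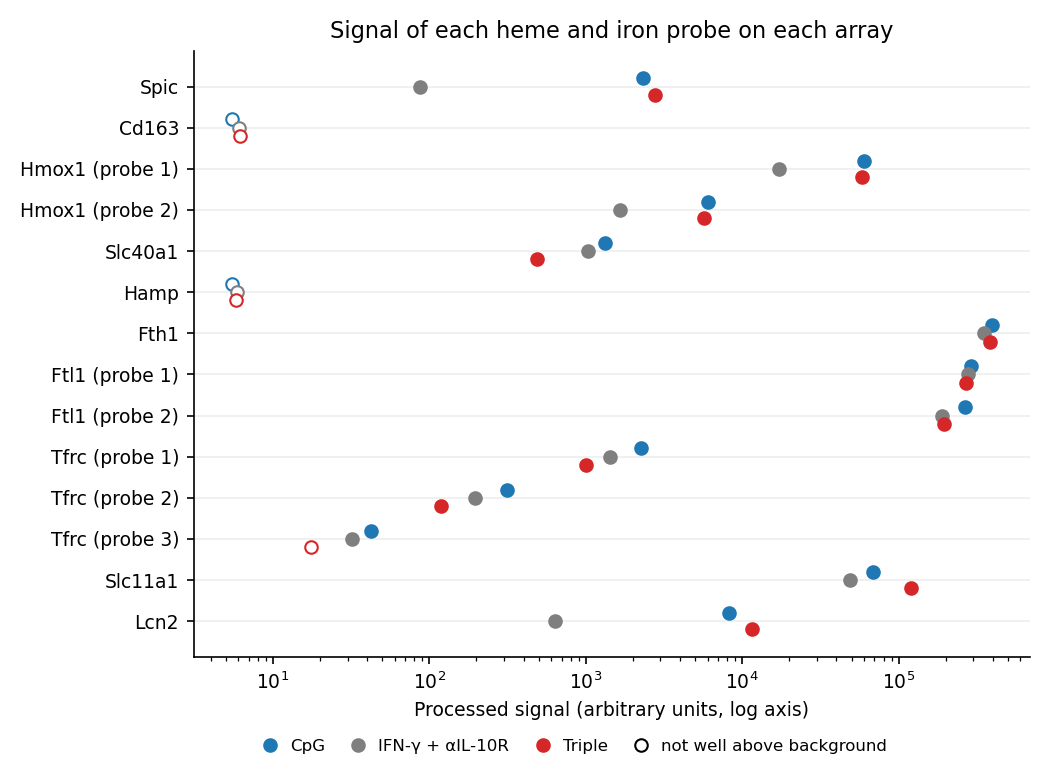
Processed signal (log axis) of every probe of the 10 genes on the 3 arrays, with 1 array per condition. Hollow points are not well above background, and positions are to be compared within a row only, since probes differ in brightness. In the rows of Spic, Hmox1, and Lcn2 the IFN-γ + αIL-10R point lies apart from the other points on the low side (87.4, 17161, and 637).

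The 60-base probes that gave the main value of the 6 members described most closely are shown by their first 30 bases, since each value below is the brightness of 1 such sequence. Positions are those of the whole probe in the array annotation (mm9), which assigns each probe to a RefSeq transcript of the gene.
Spic, chr10:88138053-88138112, strand minus: gagccagaatgtcttcagaaaaatgtgggg
Hmox1, chr8:77624207-77624266, strand plus: atggttgtaagcatccatgttgactgacca
Slc40a1, chr1:45965255-45965314, strand minus: ttctagagcaacaatagtcacaaaagttcc
Tfrc, chr16:32632255-32632314, strand plus: tgagcaagatcacattaacaaagactagtt
Slc11a1, chr1:74432161-74432220, strand plus: ccggtttccagtttggacaagtgctttacc
Lcn2, chr2:32240199-32240258, strand minus: aaggagcatctggagcctcttcttatttgg

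Spic encodes an ETS-family transcription factor that red pulp macrophages of the spleen need, and its transcription is known to be induced by heme. Its signal was 2323 (CpG), 87.4 (IFN-γ + αIL-10R), and 2785 (Triple). It was therefore 26.1-fold higher with CpG and 32.6-fold higher with Triple than with IFN-γ + αIL-10R (log2 folds of 4.71 and 5.02), whereas Triple and CpG differed by 1.25-fold. As RNA of whole cultures was measured, fewer cells expressing a gene and less RNA per cell cannot be told apart. Among genes more than 2-fold higher and well above background on both arrays compared, this was the 10th largest of 626 increases with CpG and the 22nd largest of 842 with Triple. The dim IFN-γ + αIL-10R signal makes this fold sensitive to background correction, and with the normexp method the log2 folds were 3.95 and 4.23. Cd163, the scavenger receptor for haptoglobin-bound hemoglobin, had signals of 5.45, 6.11, and 6.12 in the order CpG, IFN-γ + αIL-10R, and Triple. Since none of these was well above background, a fold was not calculated.

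Hmox1 encodes the inducible heme oxygenase. Its brighter probe had signals of 59939 (CpG), 17161 (IFN-γ + αIL-10R), and 57912 (Triple). A second probe, placed elsewhere in the transcript, had signals of 6050, 1655, and 5710 in the same order. Both probes were thus low on the IFN-γ + αIL-10R array and alike on the others. The folds over IFN-γ + αIL-10R were 3.43 with CpG and 3.45 with Triple for the brighter probe, and 3.59 and 3.52 for the other. Triple and CpG differed by a log2 fold of 0.01, less than the technical SD of 0.13, and the sign of that value turned under some scalings.

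Slc40a1 encodes ferroportin, the exporter of cellular iron. Its signal was 1321 (CpG), 1031 (IFN-γ + αIL-10R), and 491 (Triple), so that the Triple array was the low one. Triple was 2.59-fold lower than CpG (log2 fold of −1.37). Against IFN-γ + αIL-10R it was 2.06-fold lower (log2 fold of −1.04), which is closer to the threshold than the technical SD, and it passed 2-fold under 6 of 10 other ways of processing the arrays. Hamp encodes hepcidin, the ligand that causes ferroportin to be degraded and that is made mainly by the liver. Its signals of 5.46, 5.93, and 5.82 for CpG, IFN-γ + αIL-10R, and Triple were not well above background.

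Fth1 and Ftl1 encode the heavy and light chains of ferritin. Fth1 had signals of 393445 (CpG), 353486 (IFN-γ + αIL-10R), and 380784 (Triple). The largest of its log2 folds was 0.14, for Triple over IFN-γ + αIL-10R, about the technical SD, and the sign of Triple over CpG (0.01) turned under some scalings. No spot was marked as saturated, but these signals were near the highest of any spot (396152, 383188, and 417867), and whether differences are compressed at this brightness was not tested. Ftl1 was read by a pair of probes, which gave different results. The brighter one, which the array annotation places on chromosome 17 although the other lies on chromosome 7, had signals of 288761, 275552, and 269116 in the order CpG, IFN-γ + αIL-10R, and Triple. The chromosome 7 probe had signals of 264855, 190496, and 193721, and its log2 fold of CpG over IFN-γ + αIL-10R was 0.45, beside 0.04 for the brighter one. Ferritin light chain has near-identical copies in the mouse genome, and how much each probe reads from them is uncertain. Neither probe reached 2-fold in any comparison, and the sign of the brighter probe's log2 folds turned under some scalings in each of the 3 comparisons.

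Tfrc encodes the transferrin receptor, through which iron enters most cells. Its main probe was spotted 10 times on each array, so that its spread within an array could be read directly. The mean signal (log2 mean of 10 spots) was 2249 (CpG), 1422 (IFN-γ + αIL-10R), and 997 (Triple). Single spots ranged from 2063 to 2392 with CpG, from 1306 to 1511 with IFN-γ + αIL-10R, and from 904 to 1061 with Triple, so that spots of different arrays did not overlap. Triple was 2.17-fold lower than CpG (log2 fold of −1.12) and 1.40-fold lower than IFN-γ + αIL-10R (log2 fold of −0.48). CpG exceeded IFN-γ + αIL-10R by 1.56-fold. Another Tfrc probe had signals of 314, 197, and 118 on the same arrays, with a log2 fold of −1.36 for Triple over CpG. The dimmest probe, at 42.2, 32.0, and 17.6, was not well above background with Triple.

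**Figure D2:**
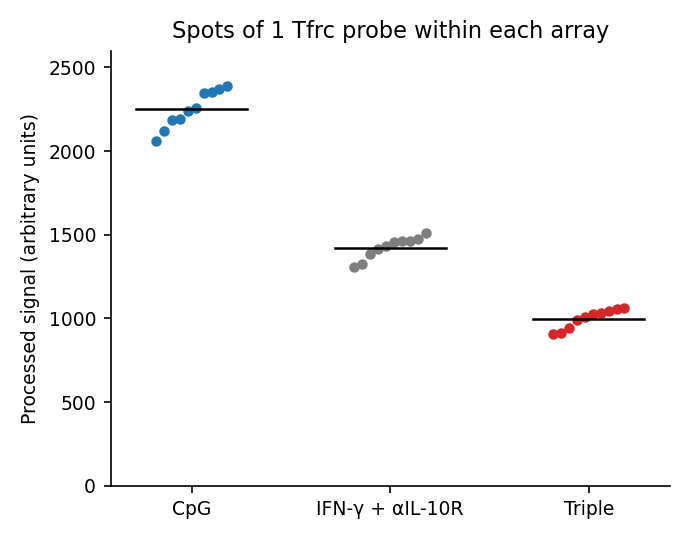
Processed signal of the 10 spots of the main Tfrc probe on each array, in rank order, with the line at their log2 mean (2249, 1422, and 997). The spots are technical repeats within 1 array per condition, and their ranges do not overlap between arrays.

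Slc11a1 encodes NRAMP1, a metal transporter that moves iron and manganese out of the phagosome of macrophages. Its signal was 68602 (CpG), 49118 (IFN-γ + αIL-10R), and 119828 (Triple), so that the Triple array was the high one. Triple was 2.49-fold higher than IFN-γ + αIL-10R (log2 fold of 1.32) and 1.82-fold higher than CpG. CpG was 1.37-fold higher than IFN-γ + αIL-10R. These are RNA signals, and whether mice of this strain make a working NRAMP1 was not examined.

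Lcn2 encodes lipocalin 2, a secreted protein that binds bacterial siderophores and so keeps iron from bacteria. Its signal was 8253 (CpG), 637 (IFN-γ + αIL-10R), and 11492 (Triple). The fold over IFN-γ + αIL-10R was 12.7 with CpG and 18.4 with Triple (log2 folds of 3.67 and 4.20), and Triple was 1.45-fold higher than CpG. Among the increases measured on both arrays it was the 25th largest of 626 with CpG and the 39th largest of 842 with Triple. Lcn2 is also a granule protein of neutrophils, and neutrophil markers were therefore read beside it. Of the 8 markers, Ngp, Ltf, Mpo, and Retnlg were not well above background on any array. The summed signal of all 8 came to 3846 (CpG), 9454 (IFN-γ + αIL-10R), and 4647 (Triple). This sum adds probes of different brightness, and its order is that of Ly6g (555, 7699, and 2658). Without Ly6g the sum came to 3291, 1755, and 1990, lowest with IFN-γ + αIL-10R. Elane had signals of 2839, 1615, and 1539. Mmp8 (340, 83.8, and 286) and Camp (72.9, not well above background, and 139) were, like Lcn2, lower with IFN-γ + αIL-10R. The part of these markers in the result was not tested.

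**Figure D3:**
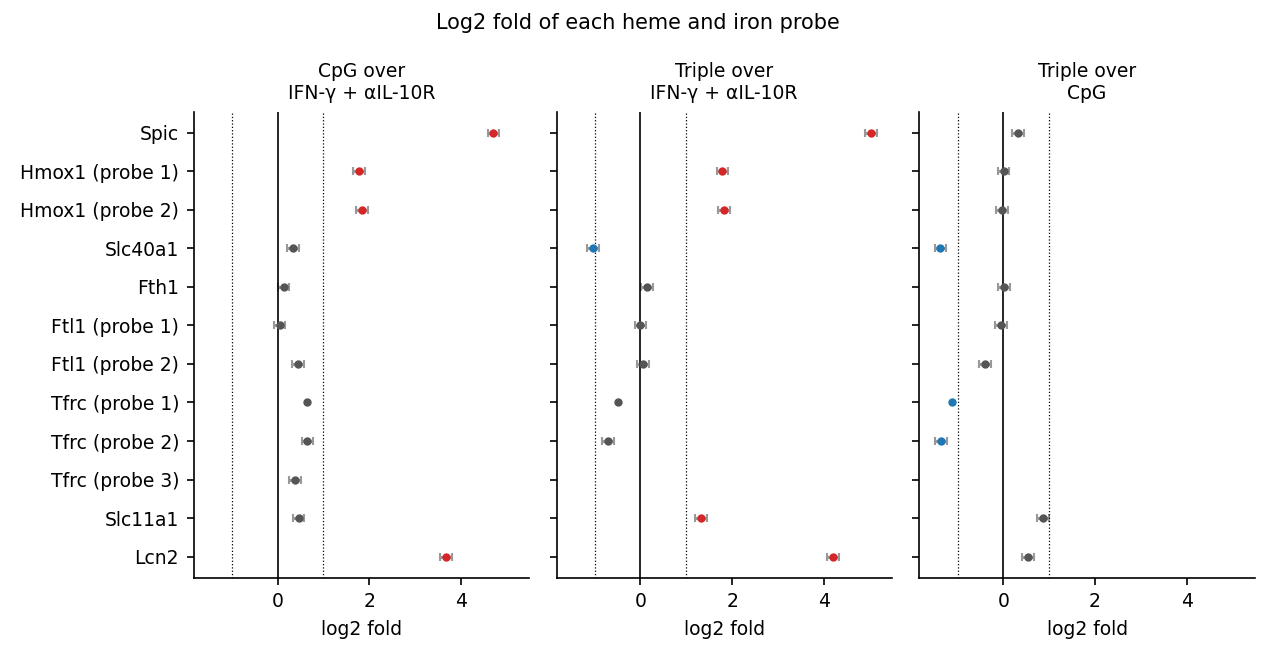
Log2 fold of each probe well above background on both arrays of a comparison (1 array per condition). Dotted lines mark 2-fold, red and blue points lie past it, and bars are the technical SD of 0.13 for probes with single spots, with no bar for the 10-spot Tfrc probe. Spic, Hmox1, and Lcn2 lie past 2-fold in both comparisons with IFN-γ + αIL-10R and within 2-fold between Triple and CpG (0.32, 0.01, and 0.53).

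The distribution of all genes gives the scale for these values. Among 15891 genes detected well above background on every array, the median log2 folds were −0.04 (Triple over IFN-γ + αIL-10R), −0.00 (CpG over IFN-γ + αIL-10R), and −0.05 (Triple over CpG). Over the 8 members well above background, the medians were 0.73, 0.55, and 0.01 in the same order, which describes these 8 genes and was not tested.

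**Figure D4:**
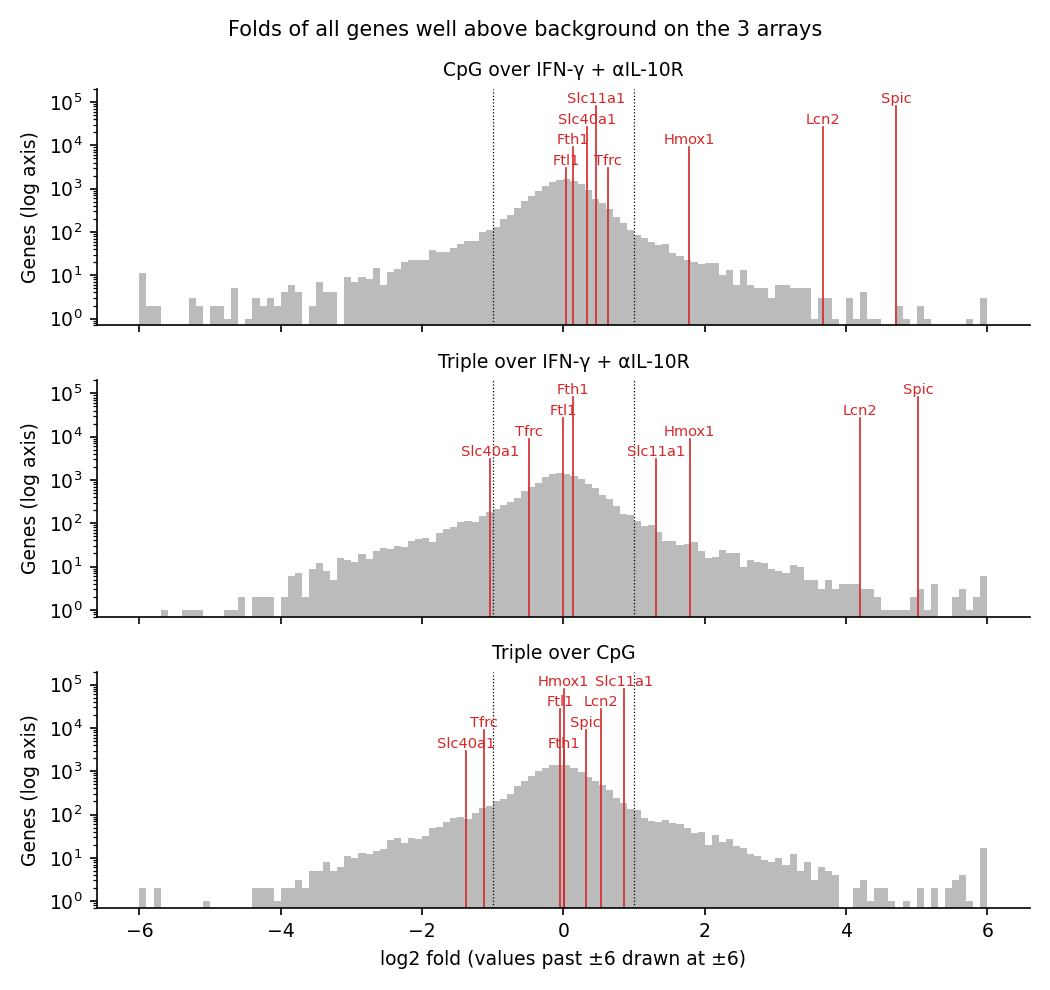
Distribution of log2 folds of 15891 genes that were well above background on each array (gray, log count axis), with the 8 measured members as red lines and 2-fold as dotted lines. Spic and Lcn2 lie in the sparse right tail of both comparisons with IFN-γ + αIL-10R, and the other members lie closer to the bulk of genes.

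Since Spic and Lcn2 were low on the IFN-γ + αIL-10R array together, the 250 bases before their RefSeq transcription starts (GRCm38.p6, written 5′ to 3′ on the gene's strand) are shown. RefSeq promoters were matched for 8 of the 10 members, that is, all but Hmox1 and Slc40a1.
Spic, chr10:88683024-88683273, strand minus: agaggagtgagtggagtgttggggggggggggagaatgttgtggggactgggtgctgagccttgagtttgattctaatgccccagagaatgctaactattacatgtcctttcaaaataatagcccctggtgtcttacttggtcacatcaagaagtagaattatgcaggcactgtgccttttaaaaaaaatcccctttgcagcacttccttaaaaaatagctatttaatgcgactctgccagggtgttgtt
Lcn2, chr2:32387740-32387989, strand minus: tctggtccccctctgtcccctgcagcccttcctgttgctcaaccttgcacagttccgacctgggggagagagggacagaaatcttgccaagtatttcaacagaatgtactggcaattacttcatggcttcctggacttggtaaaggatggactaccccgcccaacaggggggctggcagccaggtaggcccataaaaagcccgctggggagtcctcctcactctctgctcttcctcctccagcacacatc
Both strands were searched for 6 motifs, and capitals would mark a match. These were an NF-κB form (GGGNNTTCC, in 4.98% of 32851 promoters of this length), AP-1 (TGANTCA, 6.75%), a STAT element (TTCNNNGAA, 7.02%), an IRF element (GAAANNGAA, 7.13%), TATAAA (12.4%), and an antioxidant response element core (TGACNNNGC, 10.2%). No match to these 6 motifs occurred in the windows of Spic and Lcn2, which says nothing about the factors, since other forms of the sites and other regions were not searched. Among the other members, Hamp held 1 AP-1 match, at 87 to 81 bases before the start, and 1 STAT match, at 97 to 89, and they do not overlap. Fth1 held 1 TATAAA match, on the reverse strand of 1 of its 2 promoters.

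Other genes of the pathway were taken from 10 lists, which held 78 genes besides the members. Of these, 73 were measured, 61 were well above background on at least 1 array, and 23 differed more than 2-fold in at least 1 comparison. With Triple over IFN-γ + αIL-10R, 9 of the 73 were higher and 8 lower, against 3.53% and 5.01% of all genes measured. With CpG over IFN-γ + αIL-10R, 9 were higher and 2 lower, against 2.75% and 3.18%. With Triple over CpG, 5 were higher and 11 lower, against 4.08% and 4.55%. The lists hold mostly genes well above background, for which the larger shares given with the members apply. Over the 58 of them well above background on all arrays, the median log2 folds were −0.06, 0.08, and −0.15 in that order, beside −0.04, −0.00, and −0.05 for all genes.

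**Figure D5:**
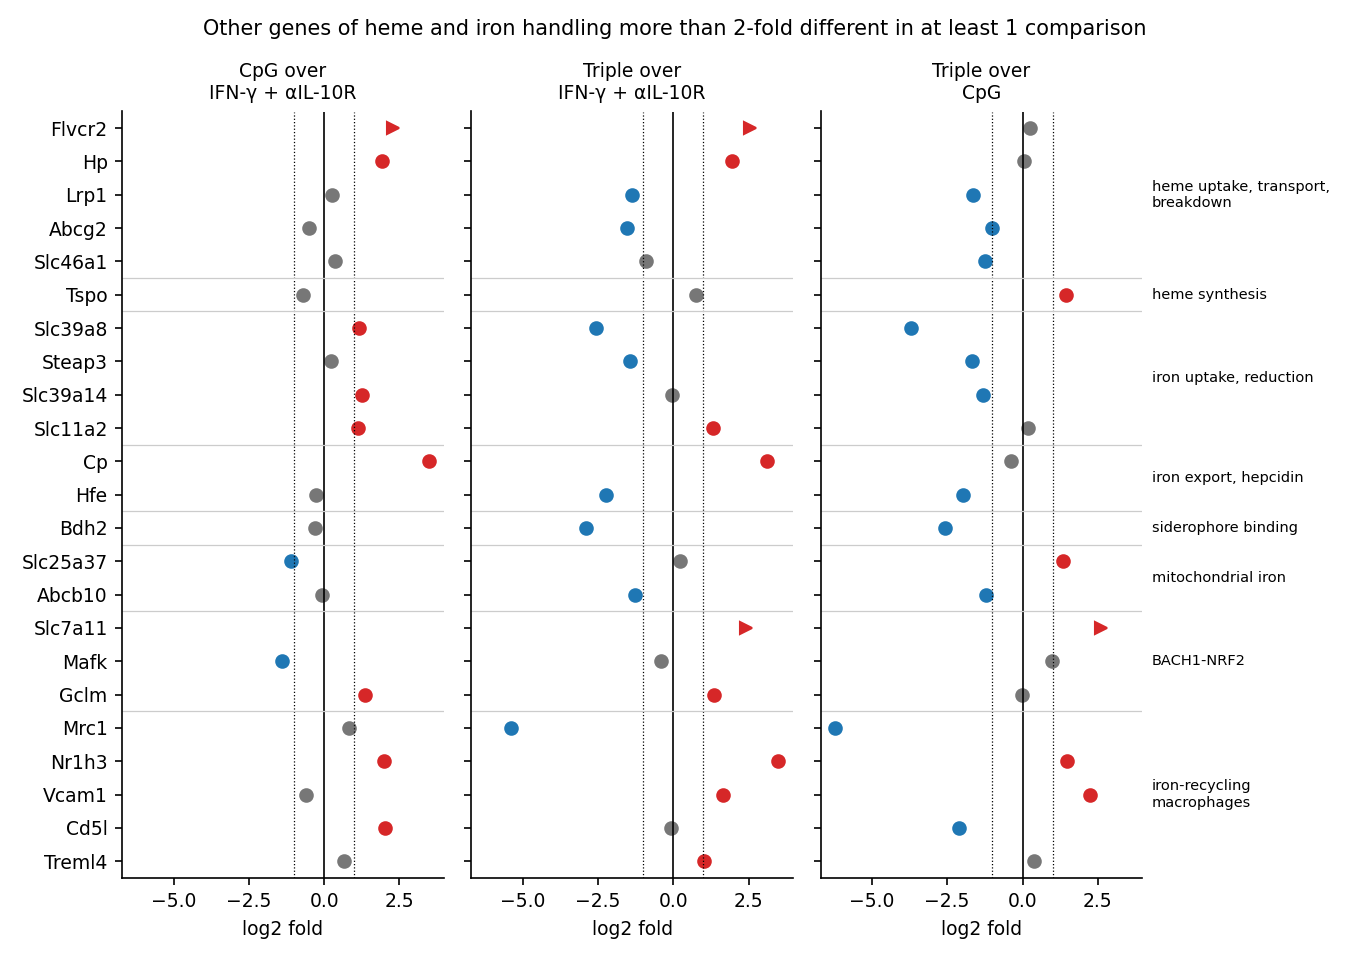
Log2 fold of the 23 other pathway genes that differed more than 2-fold in at least 1 comparison, grouped by list (1 array per condition). Circles are measured folds, triangles are lower bounds against a signal not well above background, gray marks did not pass 2-fold, and a missing mark has no signal well above background on the brighter side. Blue points, more than 2-fold lower, number 2 (CpG over IFN-γ + αIL-10R), 8 (Triple over IFN-γ + αIL-10R), and 11 (Triple over CpG). Of all genes measured, 3.18%, 5.01%, and 4.55% were lower in the same order.

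Heme uptake, transport, and breakdown had 8 measured genes besides the members, of which 2 were higher and 2 lower with Triple than with IFN-γ + αIL-10R, against 6.57% and 9.32% of all genes well above background on either array. With CpG over IFN-γ + αIL-10R, 2 were higher and 0 lower (5.06% and 5.85%), and with Triple over CpG, 0 were higher and 3 lower (7.48% and 8.34%). Hp, the hemoglobin-binding haptoglobin, had signals of 370 (CpG), 96.8 (IFN-γ + αIL-10R), and 368 (Triple), 3.76-fold and 3.89-fold above IFN-γ + αIL-10R. Flvcr2, a transporter first described for heme, had signals of 133 with CpG and 152 with Triple. It was not well above background with IFN-γ + αIL-10R and was at least 4.91-fold and at least 5.83-fold higher, as calculated against the lowest signal well above background. With normexp, which raises dim signals, the log2 folds were 1.08 and 1.30, under these bounds. Hp and Flvcr2 were thus low on the IFN-γ + αIL-10R array. Lrp1, the receptor for heme-bound hemopexin, had signals of 15394, 12652, and 4754 in the order CpG, IFN-γ + αIL-10R, and Triple, and was 3.12-fold lower with Triple than with CpG. Another Lrp1 probe (128, 116, and 56.1) had a log2 fold of −1.14 in that comparison. However, a mean over all Lrp1 probes, of which 1 was not well above background, fell short of 2-fold (−0.86). That mean also fell short for Triple over IFN-γ + αIL-10R (−0.79), where Lrp1 was counted as lower. Slc46a1, a folate transporter that also carries heme, had signals of 4115, 3167, and 1669 and was 2.37-fold lower with Triple than with CpG. The exporter Abcg2 had signals of 1442, 2019, and 685, 2.89-fold lower with Triple than with IFN-γ + αIL-10R. Its 2.03-fold lower value against CpG was at the threshold and passed it under 6 of 10 other ways of processing. The receptor for hemoglobin was thus undetected, whereas that for hemopexin was detected and lowest with Triple. Slc48a1, which carries heme out of the phagolysosome, and Hmox2 had spots marked as outliers and are not counted.

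Of 11 genes of heme synthesis, 10 were well above background, and 1 passed 2-fold, in Triple over CpG, where 13.0% of all genes well above background on every array passed it. This was Tspo, an outer mitochondrial membrane protein that binds porphyrins, whose signal was 29432 (CpG), 46568 (IFN-γ + αIL-10R), and 76890 (Triple), 2.72-fold higher with Triple than with CpG. Cpox, the coproporphyrinogen oxidase, had signals of 946, 1452, and 731 and was 1.94-fold lower with Triple than with IFN-γ + αIL-10R, short of 2-fold. Alas2, the erythroid form of the first enzyme, was not well above background on any array.

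Iron uptake and reduction had 9 measured genes besides the members, of which 3 were higher with CpG than with IFN-γ + αIL-10R and 3 were lower with Triple than with CpG, against 5.06% and 8.34% of all genes well above background on either array. With Triple over IFN-γ + αIL-10R, 1 was higher (Slc11a2) and 2 were lower (Slc39a8, 5.91-fold, and Steap3, 2.70-fold), against 6.57% and 9.32%. Another Steap3 probe had a log2 fold of −0.50 there, and the mean over Steap3 probes (−0.97) fell short of 2-fold. Slc39a8, a zinc, manganese, and iron importer, had signals of 1233 (CpG), 548 (IFN-γ + αIL-10R), and 90.8 (Triple), 13.1-fold lower with Triple than with CpG (log2 fold of −3.71, and −3.04 with normexp). Slc39a14, a related importer, had signals of 1933, 791, and 744 and was 2.50-fold lower. The ferrireductase Steap3 had signals of 1679, 1408, and 511 and was 3.16-fold lower, although its other probe had a log2 fold of −0.71, short of 2-fold. Like Tfrc, these 3 genes were thus lower with Triple than with CpG, although Slc39a14 was alike with Triple and IFN-γ + αIL-10R. Slc11a2 (DMT1), the importer that moves iron out of endosomes, had signals of 5309, 2383, and 5803, 2.19-fold higher with CpG and 2.49-fold higher with Triple than with IFN-γ + αIL-10R. Another Slc11a2 probe had log2 folds of 0.17 and 0.18, so that these increases hold for 1 probe.

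Of the 4 other measured genes of iron storage, 3 were well above background and 0 passed 2-fold. Of all genes well above background on every array, 13.4%, 8.58%, and 13.0% passed it in Triple over IFN-γ + αIL-10R, CpG over IFN-γ + αIL-10R, and Triple over CpG, so that 0 of so few genes is no result about storage. Pcbp1 and Pcbp2, chaperones that deliver iron to ferritin, had log2 folds between −0.29 and 0.28, and Ncoa4, the receptor for ferritin breakdown, had signals of 9998, 6518, and 6427. In the export and hepcidin list, 2 of 7 measured genes besides the members (Cp and Hfe) were well above background, and the others could not be compared. With Triple over IFN-γ + αIL-10R, 1 was higher and 1 lower, against 6.57% and 9.32% of all genes well above background on either array. With CpG over IFN-γ + αIL-10R, 1 was higher and 0 lower (5.06% and 5.85%). With Triple over CpG, 0 were higher and 1 was lower (7.48% and 8.34%). Cp, the ferroxidase ceruloplasmin that assists export by ferroportin, had signals of 4640 (CpG), 407 (IFN-γ + αIL-10R), and 3445 (Triple). It was 11.2-fold higher with CpG and 8.66-fold higher with Triple than with IFN-γ + αIL-10R (log2 folds of 3.49 and 3.11). As a mean over its probes both were smaller but past 2-fold, with 1.96 for Triple. Hfe, the hemochromatosis protein that binds the transferrin receptor, had signals of 5071, 5999, and 1243 and was 4.72-fold lower with Triple than with IFN-γ + αIL-10R and 3.93-fold lower than with CpG. Ferroportin and its partner Cp therefore differed in direction between Triple and IFN-γ + αIL-10R.

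Of 5 genes of iron sensing, 4 were well above background and 0 passed 2-fold, which is likewise no result for so few genes beside the shares given with storage. Aco1 and Ireb2, the iron regulatory proteins, had signals of 196, 156, and 140 and of 112, 111, and 139 in the order CpG, IFN-γ + αIL-10R, and Triple. The activity of both proteins is set mainly after translation. Among 8 mitochondrial genes, Slc25a37 (mitoferrin 1) had signals of 2946, 6243, and 7143 and was 2.16-fold lower with CpG than with IFN-γ + αIL-10R. It was 2.52-fold higher with Triple than with CpG. Its binding partner Abcb10 had signals of 990, 1026, and 414 and was 2.42-fold lower with Triple than with IFN-γ + αIL-10R. The other measured siderophore gene well above background was Bdh2, an enzyme described in the synthesis of a mammalian siderophore, with signals of 1835, 2249, and 298. It was 7.38-fold lower with Triple than with IFN-γ + αIL-10R, whereas Lcn2 was higher.

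BACH1 represses and NRF2 activates Hmox1 and other antioxidant genes. Of the 11 genes of that list besides Hmox1, 2 were higher with Triple than with IFN-γ + αIL-10R and 1 with CpG, against 6.57% and 5.06% of all genes well above background on either array. So few genes say little about the list. Gclm, a subunit of the enzyme that begins glutathione synthesis, had signals of 1177 (CpG), 447 (IFN-γ + αIL-10R), and 1116 (Triple), 2.59-fold and 2.55-fold above IFN-γ + αIL-10R. Like Hmox1, it was low on the IFN-γ + αIL-10R array and differed by less than the technical SD between Triple and CpG. The cystine transporter Slc7a11 was well above background with Triple alone (140), at least 5.37-fold over IFN-γ + αIL-10R and at least 6.13-fold over CpG. With normexp the log2 folds were 1.24 and 1.32, under these bounds. Both genes were thus higher with Triple than with IFN-γ + αIL-10R. Mafk, a small MAF partner of both factors, had signals of 1005, 2582, and 1913 and was 2.61-fold lower with CpG than with IFN-γ + αIL-10R. The NRF2 target Nqo1 had signals of 120, 79.1, and 69.5, with no difference past 2-fold. Bach1 (4558, 5206, and 2717) and Nfe2l2 (12042, 11532, and 14238) did not pass it either.

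Genes known from iron-recycling macrophages went in different directions. Nr1h3 (LXRα) had signals of 17776 (CpG), 4388 (IFN-γ + αIL-10R), and 47660 (Triple), 11.1-fold higher with Triple than with IFN-γ + αIL-10R and 2.79-fold higher than with CpG. Cd5l, a secreted protein that LXR induces, had signals of 76373, 18603, and 17080 and was 4.30-fold lower with Triple than with CpG. Vcam1, an adhesion molecule of red pulp macrophages, had signals of 383, 575, and 1759 and was 3.13-fold higher with Triple than with IFN-γ + αIL-10R. The Triple array was thus the high one for Nr1h3 and Vcam1. The mannose receptor Mrc1 had signals of 5910, 3274, and 76.4, 74.4-fold lower with Triple than with CpG (log2 fold of −6.22, and −5.25 with normexp). Treml4 was dim (70.7, 43.9, and 87.8), and its 2.04-fold higher value with Triple than with IFN-γ + αIL-10R was at the threshold. It passed 2-fold under 7 of 10 other ways of processing, and fell short with normexp, no scaling, and spike-in scaling. Other filters and a mean over probes could not change it, since its single probe was well above background on every array. Adgre1, Siglec1, and Maf did not pass 2-fold in any comparison. Spic and Nr1h3 were thus higher, and Mrc1 lower, with Triple than with IFN-γ + αIL-10R.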

How the data were processed

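The 3 conditions, taken from the sample labels, had 1 one-colour Agilent mouse array each. The scanner files deposited by the authors come from Agilent Feature Extraction 10.10.1.1, and the value used is the processed signal, a background-subtracted intensity in which dim spots carry surrogates. The table deposited by the authors is in log2 units, with column medians of −4.26, −4.38, and −4.27 for CpG, IFN-γ + αIL-10R, and Triple. Each column equaled the log2 processed signal minus a constant near the array's 75th percentile; its choice is not stated.

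Controls and outlier-marked spots were dropped, and repeated spots were averaged in log2. Arrays were aligned at the 75th percentile of 21229 probes that all of them detected well above background, since on average 44.2% of probes were detected, under the limit of 50%. For each gene the probe of highest mean signal was used. Signals not well above background were raised to the lowest signal that was, where they lay below it. A gene was counted as higher when it was well above background on the numerator array and past 2-fold, and as lower when it was so on the denominator array. No test was possible with 1 array per condition.

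The members and gene lists were chosen with earlier results of these data known. Named were all members with every probe, pathway genes past 2-fold in at least 1 comparison (up to 25, by size), and genes of the response and marker lists, of which some marker results are not reported here. Other pathway genes (Slc48a1, Hmox2, Pcbp1, Pcbp2, Ncoa4, Aco1, Ireb2, Nqo1, Bach1, Nfe2l2, Siglec1, Maf, and Cpox) were added after their values were seen. The array names Emr1 and Mfsd7c are given as Adgre1 and Flvcr2. Alternatives were normexp (offset 50), quantile, spike-in, and no scaling, the percentile over all probes, the authors' table, other filters, probe means, outlier spots kept, and other thresholds. The code was tested on simulated arrays. Python 3.11.15, numpy 2.4.6, pandas 2.3.3, matplotlib 3.10.9, R 4.3.3, and limma 3.58.1 were used.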

Additional observations from a re-analysis of the deposited data

How the results depend on the processing

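Under the 10 alternatives for single genes, 225 of 240 log2 folds of members moved by less than the technical SD (0.127 before rounding), and 15 moved by more. Of these 15, 8 were moves with spike-in scaling, of at most 0.129. Part of the 225 was fixed in advance. Neither other background filter could move its 24 folds, since these members were well above background on every array. Probe means could not move members with a single probe, and keeping outlier spots moved folds by at most 0.006. Of the differences past 2-fold, 0 changed sign. The largest move was that of Spic with normexp, whose offset raises dim signals (by 0.80). The 4 members higher with Triple and the 3 higher with CpG than with IFN-γ + αIL-10R were the same genes under all 10. Slc40a1 was 1 member lower with Triple than with IFN-γ + αIL-10R, and the count was 0 with normexp, with quantile normalization, with the percentile over all probes, and with the authors' table (log2 folds from −0.94 to −0.93), and at 3-fold. At 1.5-fold, Tfrc joined the members higher with CpG than with IFN-γ + αIL-10R, 1 member (Slc11a1) was higher with Triple than with CpG, and at 3-fold 0 were lower. At 3-fold, 3 members (without Slc11a1) were higher with Triple than with IFN-γ + αIL-10R. For Triple over IFN-γ + αIL-10R the all-gene median shifted by −0.13 with spike-in scaling (4 of 10 spike-in probes well above background) and by 0.11 with the percentile over all probes or the authors' table.

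Counts of all genes are given as higher and lower. Without the background filter and lower limit they were 2522 and 3089 (Triple over IFN-γ + αIL-10R), 2369 and 2502 (CpG over IFN-γ + αIL-10R), and 2767 and 3022 (Triple over CpG), since dim signals then count. At 1.5-fold they were 2407 and 3145, 2049 and 2347, and 2618 and 3016, and at 3-fold 620 and 823, 421 and 515, and 706 and 701, in the same order. With normexp they were 806 and 1099, 554 and 708, and 941 and 916. For Triple over CpG (1370 and 1529) the larger side thus turned with normexp and at 3-fold, as it did with the percentile over all probes (1468 and 1403) and with the authors' table (1469 and 1396). Spike-in scaling gave 1009 and 2007 for Triple over IFN-γ + αIL-10R (1187 and 1682). Their causes were not tested. Pathway genes past 2-fold (17, 11, and 16) numbered 28 and 23 at 1.5-fold for the comparisons with IFN-γ + αIL-10R, and 10, 5, and 9 at 3-fold. Signal over background limits Spic most among members called, and Hamp and Cd163 could not be compared.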
